A study of Mus musculus with 16 samples.

Results

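Genes of the cytoskeleton, 10 in all, were followed through the amplification of a trace amount of RNA: the actins Actb and Actg1, the actin-binding genes Cfl1, Pfn1, Tmsb4x, Tmsb10 and Tpm1, the tubulins Tuba1b and Tubb5, and the intermediate filament gene Vim. Each was read through all probe sets, the groups of short oligonucleotides that detect a transcript on an Affymetrix array, for which the platform annotation names only that gene, together with the manufacturer's control probe sets for mouse beta-actin. This gave 24 of the 45101 probe sets on the array, 21 of them gene probe sets and 3 control probe sets, and covered 9 of the 10 genes, out of 18193 genes named alone by a probe set. Tuba1b had 0 probe sets under this rule, because its only probe set, 1423846_x_at, is also annotated with Gm5620, and its values are not used here.

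All 16 arrays carried total RNA of E14tg2a, a line of mouse embryonic stem cells. For 8 amplified arrays the RNA was diluted to 10 pg, about what a single cell holds, and its cDNA was amplified by PCR with the V1V3 method, independently for each array. For 8 nonamplified arrays undiluted RNA (5 µg) was labelled without that PCR. The groups share genotype, culture and RNA, so they differ in the amount of starting RNA and in the amplification together, which cannot be told apart. All replicates are technical, and every p-value measures only the spread between technical replicates of a single RNA.

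Actin is kept in a reserve of monomers that is drawn on to build filaments. Beta-thymosins (Tmsb4x, Tmsb10) hold the monomers, profilin (Pfn1) delivers them to growing filament ends, cofilin (Cfl1) severs filaments and returns monomers, and tropomyosin (Tpm1) coats and steadies filaments. Alpha- and beta-tubulin pair to form microtubules, and vimentin forms intermediate filaments in mesenchymal cells and in many cultured cells. Their mRNAs are abundant in most cultured cells, and beta-actin is a common reference gene.

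Array medians lay between 33.9 and 36.7 intensity units on amplified arrays and between 49.8 and 53.9 on nonamplified arrays. The lowest listed value, 1, was held by 6.76% to 8.35% of the probe sets on an amplified array and by 2.08% to 3.21% on a nonamplified array. The brightest probe sets of 9 of 9 embryonic stem cell markers averaged between 953 and 8422 on nonamplified arrays. How the deposited values were scaled between arrays is not given in the sources used here, and other scalings moved the median log2 fold change of all tested probe sets from −0.17 to between −0.59 and 0.24.

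The members moved in both directions. Of the 21 gene probe sets, 19 passed the filter on dim probe sets, and 13 of these differed between amplified and nonamplified arrays by limma at an adjusted p under 0.05, against 57.5% of all 27022 tested probe sets. The 7 that rose belong to Actg1, Cfl1, Pfn1, Tmsb10, Tubb5 and Vim (background for a rise, 24.7%), and the 6 that fell to Actb, Cfl1, Tpm1, Tubb5 and Vim (background for a fall, 32.8%). Only 5 changed at least 2-fold, 2 upward and 3 downward (background 12.5% and 22.1%, or 34.6% in either direction). These counts include 1 probe set, Tmsb10 1455946_x_at, whose nonamplified mean was under the filter: it passed only through the amplified arrays, so its rise was fixed by the filter and supports nothing. The median log2 fold change of the 19 was −0.12, and that of all tested probe sets was −0.17. The log2 fold changes are differences of log2(intensity + 16), a scale that understates the change of dim probe sets.

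The split of the calls depended on the scaling of the arrays. With quantile normalization 4 of the member probe sets were higher and 12 lower, with the hybridization controls as reference 4 and 11, and with median centring of each array 9 and 5. Over all tested probe sets the share of higher calls was 43.0% as deposited. With these scalings, in the same order, it was 50.9%, 22.5% and 63.2%, and it was 54.1% with arrays centred on their brighter 50% of probe sets. With quantile normalization most member calls were thus lower, while those of all 27022 tested probe sets were nearly even, 8282 higher and 7993 lower. The higher member calls under each scaling include Tmsb10 1455946_x_at, whose rise was fixed by the filter. The call and its direction held under all 5 scalings for 8 of the 12 called probe sets with both group means over the filter: 3 higher (of Cfl1, Pfn1 and Tmsb10) and 5 lower (of Actb, Cfl1, Tpm1 and Tubb5). Those of Actg1 and Vim and the rise of Tubb5 did not, as given beside each. The share of all tested probe sets that kept their call in this way is not given here, so 8 of 12 is only a description.

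**Figure D1:**
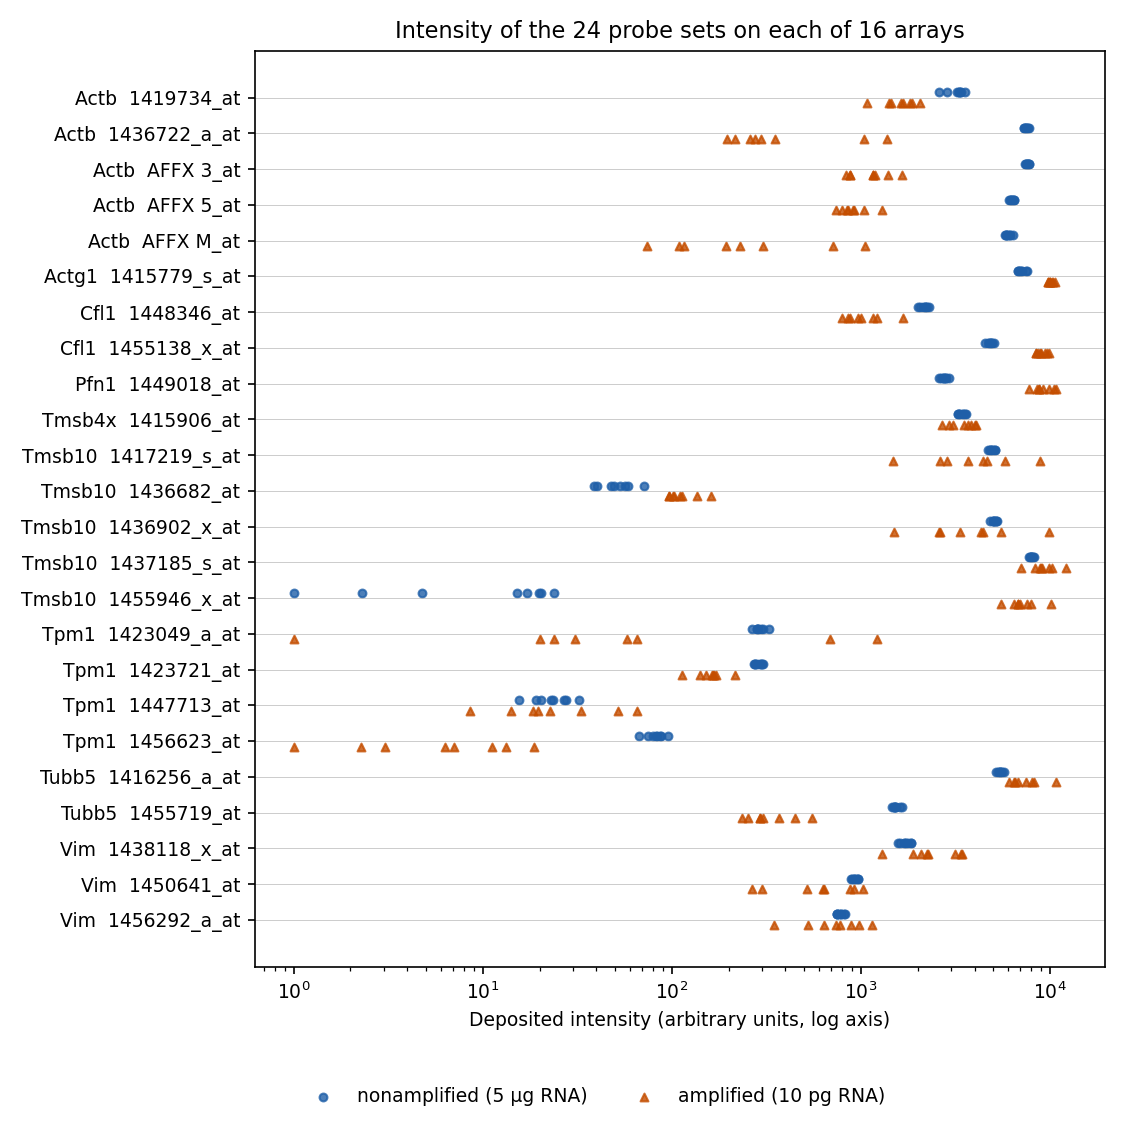
Deposited intensity (log axis, arbitrary units) of each of the 24 probe sets on 8 nonamplified arrays (circles) and 8 amplified arrays (triangles), 1 point per array. The 5 beta-actin probe sets lie lower on every amplified array, Pfn1 lies higher on every amplified array, and Tmsb10 1455946_x_at goes from at most 23.7 to at least 5529.

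Beta-actin was lower on all 8 amplified arrays at each of its 5 probe sets, and by very unequal amounts. The gene probe set 1436722_a_at ranged from 7339 to 7754 on nonamplified arrays, with a median of 7524, and from 196 to 1377 on amplified arrays, with a median of 287. Amplified replicates 3 and 5 stood above the rest, at 1377 and 1044, and the third highest array read 353. It fell by 4.23 on the log2 scale (SE 0.34, limma adjusted p = 1.66e-08), and the nonamplified mean intensity of 7514 ± 161 (SD, n = 8) was 15 times the amplified mean of 503 ± 449 (SD, n = 8).

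The second gene probe set of Actb, 1419734_at, ranged from 2589 to 3549 on nonamplified arrays (median 3315) and from 1077 to 2070.0 on amplified arrays (median 1647). The groups did not overlap, and the amplified arrays formed a single range without a pair of high arrays. It fell by 0.99 on the log2 scale (SE 0.12, limma adjusted p = 2.68e-06). Non-overlap of this kind was found for 11 of the 19 tested member probe sets, 6 of them higher and 5 lower, and for 33.6% of all tested probe sets (14.8% higher and 18.8% lower). The change in the log2 difference between both Actb probe sets was −3.24 (SE 0.33, limma adjusted p = 3.56e-07 over 5605 genes).

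The control probe sets read the beta-actin transcript near its 3′ end, in its middle and toward its 5′ end. The 3′ probe set ranged from 7432 to 7806 on nonamplified arrays (median 7629) and from 838 to 1645 on amplified arrays (median 1165). The 5′ probe set ranged from 6118 to 6451 (median 6293) and from 738 to 1301 (median 885). The middle probe set ranged from 5804 to 6375 (median 5972) and from 74.5 to 1060.1 (median 213). At each of them all amplified arrays lay below all nonamplified arrays, and replicates 3 and 5 were again the highest in the middle of the transcript, at 1060.1 and 714, with the third highest at 305.

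The nonamplified means were 6.64, 6.79 and 17.1 times the amplified means for the 3′, 5′ and middle probe sets. The log2 differences were −2.75, −2.76 and −4.54, each with an exact 2-sided permutation p of 0.000155 (adjusted 0.000238 over 23 tests), the smallest that regrouping 8 against 8 arrays can give. The log2 difference of 3′ minus 5′ averaged 0.28 ± 0.27 with amplification and 0.27 ± 0.018 without it (SD, n = 8 each). These means differed by 0.012 (exact permutation p = 0.932), between −0.063 and 0.059 when single arrays were left out, with negative values without amplified replicate 1 or 7.

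The difference of 3′ minus middle averaged 2.13 ± 0.98 with amplification and 0.34 ± 0.025 without it (SD, n = 8 each). These means differed by 1.79 (exact permutation p = 0.000155, adjusted 0.000238). It was 0.63 and 0.70 in replicates 3 and 5 and between 2.14 and 3.31 in the other 6 amplified arrays, so every amplified array lay above the nonamplified ones, whose highest value was 0.36. The same measures were computed for the control transcripts of Gapdh, a glycolytic enzyme, Tfrc, the transferrin receptor, and Pcx, pyruvate carboxylase. For Gapdh the 3′ minus 5′ difference rose by 1.63 (−0.26 ± 0.015 to 1.37 ± 0.40, SD, n = 8 each, exact permutation p = 0.000155). The change for Actb was lower than that for Gapdh by a difference of −1.62 (exact permutation p = 0.000155, adjusted 0.000238), in a test added after the data were seen. For Tfrc the amplified minus nonamplified value was 0.23 (exact permutation adjusted p = 0.220), a value that followed the pseudocount: 0.65 with 1 (exact permutation adjusted p = 0.0119) and −0.22 with 64 (exact permutation adjusted p = 0.0419). It was 0.33 without amplified replicate 8 (exact permutation adjusted p = 0.0342). For Pcx it was −1.21 (exact permutation adjusted p = 0.0363), a call lost with quantile normalization, without amplified replicate 2, 4, 5 or 8, and without any single nonamplified array (exact permutation adjusted p from 0.05 to 0.0608 in these cases).

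The 3′ minus middle difference did not go the same way in every control transcript. Against 1.79 for Actb, it changed by 0.42 for Gapdh and by −1.37 for Tfrc (each with an exact permutation p of 0.000155). Pcx has a pair of middle probe sets, at which the values were −1.18 (exact permutation adjusted p = 0.0203) and 1.49 (exact permutation adjusted p = 0.00318), the second lost with a pseudocount of 1 (exact permutation adjusted p = 0.0764).

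**Figure D2:**
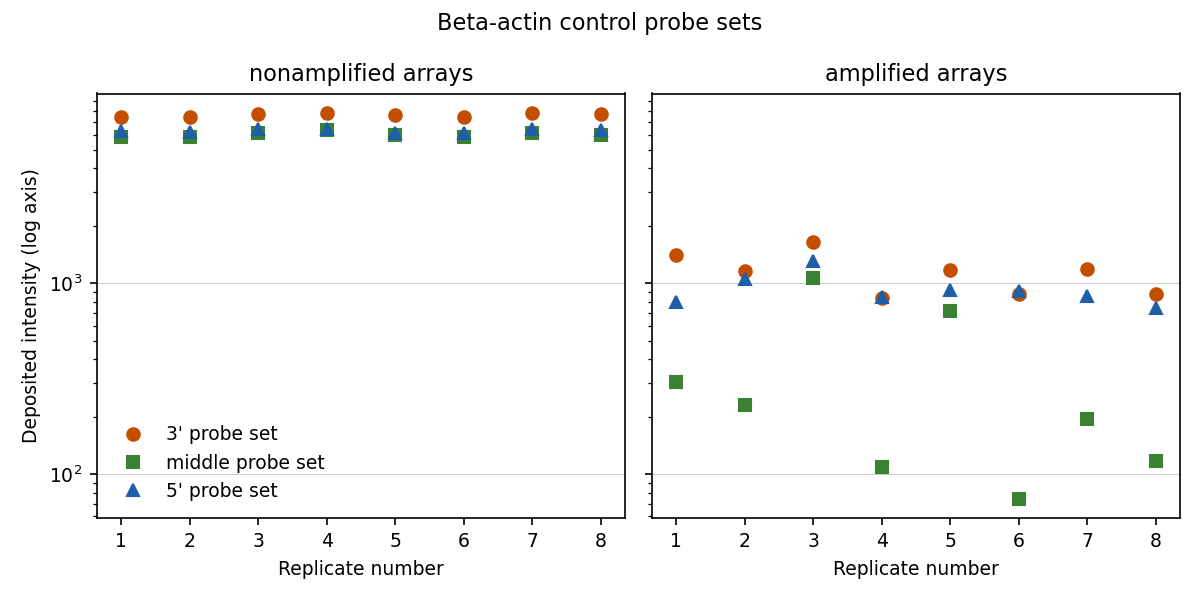
Deposited intensity (log axis) of the 3′, middle and 5′ beta-actin control probe sets on each nonamplified array (left) and each amplified array (right), by replicate number. On amplified arrays the 3′ and 5′ points lie between 738 and 1645, and the middle points lie between 74.5 and 305 except in replicates 3 and 5.

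Gamma-actin, the other actin of nonmuscle cells, read higher on every amplified array as deposited. Its probe set 1415779_s_at ranged from 6781 to 7556 on nonamplified arrays (median 6997) and from 9763 to 10675 on amplified arrays (median 10032). The groups did not overlap, and the log2 SD was 0.044 on amplified and 0.060 on nonamplified arrays. As deposited it rose by 0.51 on the log2 scale (SE 0.061, limma adjusted p = 1.66e-06), but with quantile normalization the value was −0.022 and with the hybridization controls as reference 0.10. The suffix _s_at marks a probe set whose probes are shared by several transcripts, and related actin sequences may add to it.

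Profilin 1 rose. Its only probe set, Pfn1 1449018_at ranged from 2593 to 2919 on nonamplified arrays (median 2752) and from 7790.5 to 10768 on amplified arrays (median 8969). Every amplified array lay above every nonamplified array. The mean intensity went from 2756 ± 103 to 9294 ± 1039 (SD, n = 8 each), or 3.37-fold. On the log2 scale it rose by 1.74 (SE 0.079, limma adjusted p = 9.86e-12). Under the other scalings it stayed between 0.99 and 2.15.

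Cofilin 1 rose at one probe set and fell at the other. Cfl1 1455138_x_at ranged from 4547 to 5061 on nonamplified arrays (median 4861) and from 8456 to 9892 on amplified arrays (median 8948). Cfl1 1448346_at ranged from 2008.5 to 2299 on nonamplified arrays (median 2197) and from 799 to 1682 on amplified arrays (median 985). Neither probe set overlapped between the groups, the first lying wholly above and the second wholly below.

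The log2 fold changes of Cfl1 were 0.90 (SE 0.065, limma adjusted p = 3.4e-09) and −1.04 (SE 0.13, limma adjusted p = 2.63e-06). Both directions held under all 5 scalings. The difference between both probe sets changed by 1.95 (SE 0.17, limma adjusted p = 3.51e-08). The suffix _x_at of the rising probe set marks probes that are identical or nearly so to other sequences.

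Thymosin beta 4 showed no change that passed the test. Tmsb4x 1415906_at ranged from 3256 to 3617 on nonamplified arrays (median 3422) and from 2687 to 4060.4 on amplified arrays (median 3602). The groups overlapped: 4 amplified arrays lay above all nonamplified arrays, 3 below all of them and 1 among them. The log2 fold change was 0.010 (SE 0.095, limma adjusted p = 0.937). Its call followed the scaling: it was higher with median centring (0.42, limma adjusted p = 0.00149), and lower with quantile normalization (−0.84, limma adjusted p = 3.36e-07) and with the hybridization controls as reference (−0.41, limma adjusted p = 0.0234).

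Thymosin beta 10 was read by 5 probe sets, and 4 of them gave log2 fold changes between −0.45 and 0.94. The fifth, 1455946_x_at, ranged from 1 to 23.7 on nonamplified arrays (median 16.2) and from 5529 to 10094 on amplified arrays (median 6891). The groups were far apart, with all 8 nonamplified values under the filter intensity of 33.7. No fold and no test of its rise is given here, since its nonamplified level has no measured value above the filter. In the platform annotation its source sequence is the same as that of 1437185_s_at, which was bright in both groups, from 7755 to 8289.7 on nonamplified arrays (median 7984) and from 7079 to 12208 on amplified arrays (median 9065). That second probe set differed by 0.21 on the log2 scale (SE 0.095, limma adjusted p = 0.0726), and it reached the threshold without amplified replicate 4, the lowest array (0.26, limma adjusted p = 0.0143). It was called higher with median centring (0.62, limma adjusted p = 5.2e-05) and with centring on the brighter 50% of probe sets (0.42, limma adjusted p = 0.00112), and called lower with quantile normalization (−0.37, limma adjusted p = 0.00299). With the hybridization controls as reference it was −0.21 (limma adjusted p = 0.22).

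The other bright Tmsb10 probe sets varied together over the amplified arrays. Tmsb10 1417219_s_at ranged from 4718 to 5116 on nonamplified arrays (median 4914) and from 1485 to 8889.6 on amplified arrays (median 4083). Tmsb10 1436902_x_at ranged from 4812 to 5253 (median 5082) and from 1507 to 9909.5 (median 3839). At each, 2 amplified arrays lay above and 6 below all nonamplified arrays, with replicate 8 the highest and replicate 4 the lowest. The log2 fold changes were −0.37 (SE 0.27, limma adjusted p = 0.256) and −0.45 (SE 0.28, limma adjusted p = 0.181). Without amplified replicate 8 they became −0.54 (limma adjusted p = 0.0492) and −0.65 (limma adjusted p = 0.0168), past the threshold. They were also called lower with quantile normalization (−1.08 and −1.15) and with the hybridization controls as reference (−0.79 and −0.87). The dim probe set 1436682_at went from 52.2 ± 10.6 to 115 ± 22.7 (SD, n = 8 each), without overlap. It rose by 0.94 on the log2 scale (SE 0.12, limma adjusted p = 3.85e-06). Replicate 8 was the highest amplified array and replicate 4 the lowest in the 4 Tmsb10 probe sets other than this dim one.

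**Figure D3:**
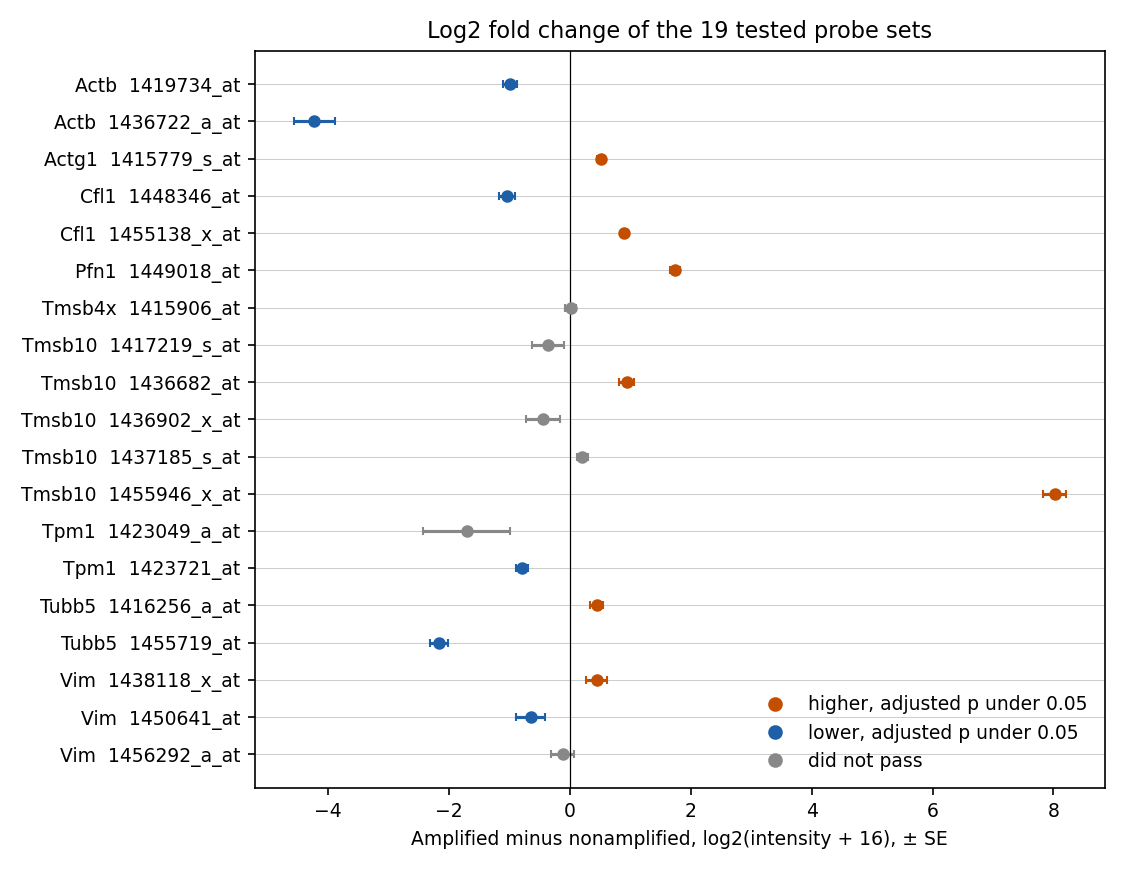
Log2 fold change (amplified minus nonamplified arrays, on log2(intensity + 16)) with its SE for the 19 tested probe sets, coloured by whether limma's adjusted p was under 0.05 and by direction. Cfl1, Tubb5 and Vim each have a probe set on either side of 0 that passed the test, and the point farthest to the right is Tmsb10 1455946_x_at, whose nonamplified values are under the filter.

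Tropomyosin 1 was low on most amplified arrays and high on a pair of them. Tpm1 1423049_a_at ranged from 265 to 327 on nonamplified arrays (median 286) and from 1 to 1218 on amplified arrays (median 44.3). Replicates 6 and 4 lay above all nonamplified arrays, at 1218 and 692, and the other 6 amplified arrays lay below, at 65.6 or less. The log2 fold change of −1.71 (SE 0.73) missed the threshold (limma adjusted p = 0.0545), and passed it without amplified replicate 4 (−2.13, limma adjusted p = 0.0111) or 6 (−2.24, limma adjusted p = 0.00295), with quantile normalization (limma adjusted p = 0.0378) and with the hybridization controls as reference (limma adjusted p = 0.0223).

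Tpm1 1423721_at ranged from 274 to 303 on nonamplified arrays (median 288) and from 114 to 217 on amplified arrays (median 165). It fell by 0.79 on the log2 scale (SE 0.10, limma adjusted p = 3.34e-06), without overlap. The remaining Tpm1 probe sets were under the filter and untested. Of these 1456623_at read 82.2 ± 8.49 on nonamplified and 7.86 ± 6.13 on amplified arrays (SD, n = 8 each), with no overlap, and 1447713_at read 23.6 ± 5.30 and 29.3 ± 20.0. Replicates 6 and 4 were the highest amplified arrays at both of these too, with 18.7 and 13.2 at 1456623_at and 66.0 and 52.0 at 1447713_at.

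Beta-tubulin 5, a main beta-tubulin of dividing cells, also split by probe set. Tubb5 1416256_a_at ranged from 5167 to 5719 on nonamplified arrays (median 5478) and from 6102 to 10769 on amplified arrays (median 7136). Tubb5 1455719_at ranged from 1471 to 1647 (median 1513) and from 235 to 550.1 (median 299). Neither overlapped, and the lower of them was below a nonamplified minimum of 1471 on every amplified array. The log2 fold changes were 0.45 (SE 0.11, limma adjusted p = 0.0017) and −2.16 (SE 0.15, limma adjusted p = 1.41e-09).

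The fall of Tubb5 1455719_at stayed between −2.68 and −1.75 under the other scalings. The rise of 1416256_a_at did not hold, with −0.21 by quantile normalization and 0.026 by the hybridization controls. The difference between both probe sets changed by 2.61 (SE 0.17, limma adjusted p = 1.5e-09).

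Vimentin gave 3 small and contrary values. Vim 1438118_x_at ranged from 1576 to 1856 on nonamplified arrays (median 1724) and from 1288 to 3439 on amplified arrays (median 2248). Vim 1450641_at ranged from 888 to 968 (median 925) and from 267 to 1032 (median 634). Vim 1456292_a_at ranged from 749.6 to 826 (median 774) and from 349.8 to 1154 (median 761). Amplified arrays lay on both sides of the nonamplified ones at all 3: in the same order, 7, 1 and 3 lay above every nonamplified array and 1, 6 and 4 lay below. Amplified replicate 5 was the lowest at all 3.

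As deposited Vim 1438118_x_at rose by 0.44 (SE 0.17, limma adjusted p = 0.0367) and 1450641_at fell by 0.65 (SE 0.24, limma adjusted p = 0.03) on the log2 scale, while 1456292_a_at gave −0.12 (SE 0.19, limma adjusted p = 0.617) and was called lower with quantile normalization (−0.69, limma adjusted p = 0.00152) and with the hybridization controls as reference (−0.54, limma adjusted p = 0.0368). The rise was lost without amplified replicate 2, 3 or 4 (limma adjusted p = 0.0712, 0.0721 and 0.0706) or nonamplified replicate 3, 5, 6, 7 or 8 (limma adjusted p from 0.0528 to 0.0621), and the value became −0.35 with quantile normalization. The fall was lost without amplified replicate 5 (limma adjusted p = 0.0502) or 6 (limma adjusted p = 0.0572), and with centring on the median (−0.24, limma adjusted p = 0.428) or on the brighter 50% of probe sets (−0.43, limma adjusted p = 0.139). Probe sets 1438118_x_at and 1456292_a_at come from the same source sequence in the platform annotation, and their difference changed by 0.56 (SE 0.15, limma adjusted p = 0.0035).

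Vimentin is also abundant in fibroblasts, which serve as feeders in some cultures of embryonic stem cells. The sample titles name no feeders. Of 9 fibroblast markers, 6 had tested probe sets. Of these 9 probe sets, 2 were called higher (22.2%, against 24.7% of all) and 6 lower (66.7%, against 32.8%). The summed intensity of all 17 probe sets of the markers lay between 2826 and 4981 on amplified arrays and between 3073 and 3224 on nonamplified arrays. The brightest probe sets of Col3a1, Lum, Postn and Thy1 averaged between 14.5 and 31.1 on nonamplified arrays, under the filter. Those of Col1a1, Col1a2 and Dcn were dim but over it, at 53.0, 82.0 and 54.6, while Fn1 averaged 1441 and Sparc 535. Both groups carried the same RNA, so the calls between them do not compare different cells. For the levels within that RNA, fewer cells of a type and less RNA per cell cannot be told apart. The part of fibroblast RNA in the vimentin values was not tested.

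Of the 6 members with 2 or more tested probe sets, Tmsb10 is left out of the test of their difference, which would use 1455946_x_at. Probe sets of a single gene differed in their change for 4 of the other 5, where 54.6% of all 5605 such genes did. Over probe sets with both group means above the filter, the range of log2 fold changes within a gene was 3.24 for Actb, 2.61 for Tubb5, 1.95 for Cfl1, 1.39 for Tmsb10, 1.09 for Vim and 0.92 for Tpm1. For Tpm1 the change of the difference was −0.92 (SE 0.78, limma adjusted p = 0.334), with amplified replicates 4 and 6 opposite to the others.

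Of the 19 tested probe sets 11 varied more between amplified than between nonamplified arrays by limma on absolute deviations from the group mean, a share near the 52.8% of all tested probe sets. With the hybridization controls as reference 3 did, but the share of all tested probe sets under that scaling is not given here. Just 1, Tmsb10 1455946_x_at, varied less (0.418% of all), but it passed the filter only through the amplified arrays. Its nonamplified values are those near the lowest listed value, so this call supports nothing. The median log2 SD of the members was 0.29 on amplified and 0.054 on nonamplified arrays, against 0.51 and 0.13 over all tested probe sets.

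Among the tested probe sets the most variable on amplified arrays was Tpm1 1423049_a_at (log2 SD 2.17, and 0.085 on nonamplified arrays, limma adjusted p of the spread 0.00595). Actb 1436722_a_at followed, with 1.02 against 0.031 (limma adjusted p = 0.00397), and then Tmsb10 1436902_x_at, with 0.81 against 0.041 (limma adjusted p = 0.00857). At the other end Actg1 had the smallest amplified SD, 0.044, which was at percentile 0.218 of all tested probe sets. Cfl1 1455138_x_at, 0.088 against 0.047, and Pfn1, 0.16 against 0.054, were also tight.

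**Figure D4:**
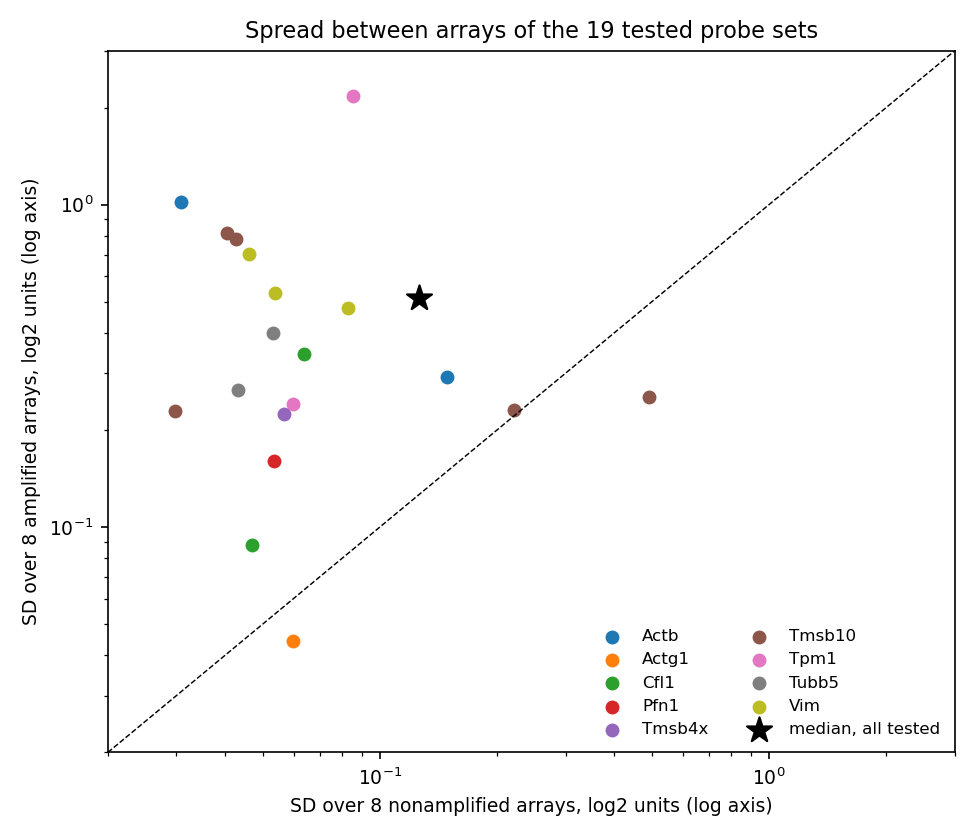
SD of log2(intensity + 16) over 8 amplified arrays against that over 8 nonamplified arrays (both log axes) for the 19 tested probe sets, with the median of all 27022 tested probe sets as a star and equality as a dashed line. Tpm1 1423049_a_at (2.17) and Actb 1436722_a_at (1.02) lie highest, and Actg1 (0.044) lies lowest.

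The arrays that stood out were not the same for every gene, though replicates 8 and 4 recurred. Replicates 3 and 5 were highest for Actb 1436722_a_at, replicates 6 and 4 for Tpm1 1423049_a_at and replicate 8 for 4 Tmsb10 probe sets and for Tubb5 1416256_a_at. Replicate 8 was also the highest for Cfl1 1448346_at, Vim 1450641_at and Vim 1456292_a_at, but the lowest for Actb 1436722_a_at and Actg1. Replicate 5, high for Actb, was the lowest for all 3 Vim probe sets and for Tmsb4x. Replicate 4, high for Tpm1, was the lowest for 4 Tmsb10 probe sets, for Cfl1 1448346_at, for Actb 1419734_at and for the 3′ beta-actin control. Among these probe sets no array was high or low throughout.

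**Figure D5:**
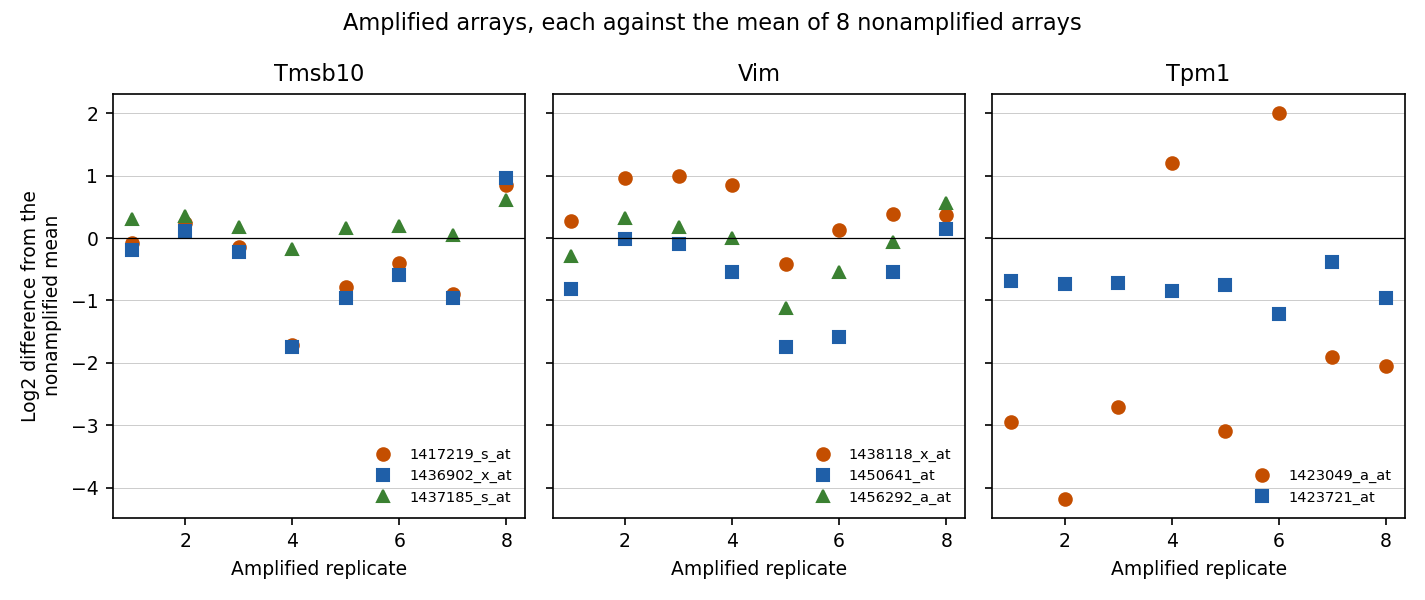
Log2 difference of each amplified array from the mean of the 8 nonamplified arrays, by replicate number, for bright probe sets of Tmsb10, Vim and Tpm1. Probe sets of Tmsb10 vary together, with replicate 8 highest and replicate 4 lowest, whereas Tpm1 1423049_a_at is high in replicates 4 and 6 and Tpm1 1423721_at is not.

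In 5 lists of related genes, 32 of 160 tested probe sets were higher (20%, against 24.7% of all) and 66 lower (41.25%, against 32.8%), from 77 of 89 genes. With median centring the counts were 51 higher and 44 lower. Of 101 probe sets of other actin filament genes 14 rose (13.9%) and 44 fell (43.6%), with a median log2 fold change of −0.45. That median lay below the −0.17 of all tested probe sets, and with quantile normalization it was −0.79 against −0.026. The other scalings shift every probe set of an array alike, so they could not change this order. With the highest probe set per gene over the 16 arrays, the 5 lists held 21 higher and 23 lower genes. Of the 43 tested genes among the other actin filament genes, 13 were then lower, or 15 with the probe set of highest nonamplified mean. The share of all genes called lower with 1 probe set per gene is not given here. The larger share of falling probe sets in this list is thus only a description.

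Other tubulins had 5 higher (26.3%) and 6 lower (31.6%) of 19 probe sets (median 0.20). These shares lay near the 24.7% higher and 32.8% lower of all tested probe sets. Tubulin folding and microtubule-binding genes had 9 higher (45%) and 8 lower (40%) of 20 (median 0.38). Other intermediate filament genes had 2 higher (11.8%) and 7 lower (41.2%) of 17 (median −0.097). The medians of these lists changed sign with the scaling. The muscle actins, little used in stem cells, had only 3 tested probe sets, 2 higher (66.7%) and 1 lower (33.3%).

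Among the other actin filament genes, Dstn, which like cofilin severs filaments, was the brightest and went from 2998 ± 110 to 2016 ± 473 (SD, n = 8 each). It fell by 0.60 on the log2 scale (SE 0.12, limma adjusted p = 0.000547), a call lost with median centring (−0.19). Marcks, which links actin to the membrane, gave the largest change: 1456028_x_at went from 454 ± 37.3 to the lowest listed value, 1, on all 8 amplified arrays, while 6 other Marcks probe sets lay between −2.82 and −0.14.

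The muscle actins went apart, with Acta1 falling from 198 ± 38.6 to 71.5 ± 27.4 and Acta2 rising from 10.8 ± 5.79 to 91.2 ± 12.2 at 1456658_at. Among tubulins, Tubb4b rose from 5638 ± 156 to 9819 ± 419 at 1439416_x_at and Tubb4a, a brain beta-tubulin, fell from 132 ± 14.3 to 18.9 ± 10.4. Stmn1, which destabilizes microtubules, rose from 5394 ± 164 to 7429 ± 419 at 1415849_s_at (log2 fold change 0.46, limma adjusted p = 9.67e-06), but was at −0.20 with quantile normalization. Mapre1, which binds growing microtubule ends, fell from 736 ± 30.7 to 195 ± 152 at 1450740_a_at. Lmnb1, a lamin of the nuclear envelope, fell from 1318.5 ± 54.2 to 576 ± 194 at 1423521_at, and Plec, which links intermediate filaments to other structures, from 185 ± 17 to 1 on all 8 amplified arrays at 1434610_at. Other tested probe sets of these genes did not all go the same way. The other Stmn1 probe set was at −1.30 on the log2 scale. The 2 others of Tubb4b were at −0.58 and 0.94, and the 2 others of Plec at 0.011 and 0.55. Those of Mapre1 (−1.13 at both), Lmnb1 (−2.55) and Acta2 (1.13) went the same way as the probe set named. Marcks 1456028_x_at, Acta2 1456658_at, Tubb4a and Plec 1434610_at had a group mean under the filter and passed it only through the other group, so their calls were fixed by it. Of the other 6 probe sets, 4 kept their call and direction under all 5 scalings, Dstn and Stmn1 excepted (SD, n = 8 in each group throughout). The share of all tested probe sets that did so is not given here.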

How the data were processed

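The deposited table holds a linear intensity per probe set and array. The software that summarised and scaled the probes is not given in the sources used here. Gene names came from the platform annotation, updated through RefSeq of GRCm38.p6: 34958 probe sets had 1 symbol (34754 matched), 932 several and 9211 none here. The intensities as deposited were taken as log2(intensity + 16). Probe sets with a mean at or under the 40th percentile (intensity 33.7) and 64 control probe sets were left out, which left 27022. Group differences were fitted with limma 3.58.1 (lmFit, then eBayes) under R 4.3.3, 2-sided, with Benjamini-Hochberg adjustment over all tested probe sets at a threshold of 0.05. At least 2-fold means a log2 difference of 1 or more in size. Disagreement within a gene was tested the same way on the per-array log2 difference between its tested probe sets of highest and lowest nonamplified mean, and spread on absolute deviations from the group mean. Control transcripts were compared by exact permutation of group labels (Python 3.11.15, SciPy 1.17.1). The procedures were tested on simulated data. Named were all member probe sets and, from each list, the gene of highest nonamplified mean and that of the largest absolute log2 fold change among those called. The lists were other actin filament genes, muscle actins, other tubulins, tubulin partners, other intermediate filament genes, and embryonic stem cell and fibroblast markers. Embryonic stem cell markers had 6 of 13 tested probe sets higher (46.2%, against 24.7% of all) and 4 lower (30.8%, against 32.8%). A further list is not reported here. Members and lists were chosen with earlier results of these data known. Alternatives were pseudocounts 1 and 64, 4 other scalings, other filters, probe set types, weights, a robust trend, a replicate block, other probe set choices and leaving out each array. Scan dates and slides were not used here, and no batch was tested. The number of arrays limits the precision.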

Additional observations from a re-analysis of the deposited data

Results flagged for a closer look

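Among 52 groups of 8 member values examined, 3 held a single array farther from the rest than Dixon's critical value for 8 values allows, and chance alone gives about 5% of groups. Tubb5 1416256_a_at read 10769 on amplified replicate 8, where the other amplified arrays read between 6102 and 8252. The 3′ minus 5′ log2 difference of the beta-actin control was 0.31 on nonamplified replicate 5, where the others lay between 0.25 and 0.28. The 3′ minus middle difference was 0.28 on nonamplified replicate 4, where the others lay between 0.33 and 0.36.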

How the results depend on the processing

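Counts changed with the scaling, the probe set types and the choice of probe set. The 7 higher member probe sets became 4 with quantile normalization, 4 on the hybridization controls and 3 with the _x_at and _s_at types left out, which leaves fewer probe sets. The 6 lower ones became 12 and 11 with quantile normalization and the hybridization controls, and the 11 with larger spread became 3 on the hybridization controls. For the spread, the share of all tested probe sets on the hybridization controls is not given here. In the lists the 32 higher probe sets became 51 with median centring (beside 44 lower) and 16 on the hybridization controls, and 21 genes with 1 probe set per gene, by the mean over 16 arrays or by the nonamplified mean. The 66 lower ones became 23 and 26 with 1 probe set per gene by these rules. Signs turned with quantile normalization for Actg1 (−0.022), Tmsb4x (−0.84), Tmsb10 1437185_s_at (−0.37), Tubb5 1416256_a_at (−0.21) and Vim 1438118_x_at (−0.35). They turned on the hybridization controls for Tmsb4x (−0.41) and Tmsb10 1437185_s_at (−0.21) and, for the difference in spread, Cfl1 1448346_at (−0.016) and Tubb5 1416256_a_at (−0.031). With median centring Tmsb10 1417219_s_at became 0.042 and Vim 1456292_a_at 0.29, and 0.097 with centring on the brighter 50%. With a pseudocount of 64 the spread difference of Tmsb10 1455946_x_at became 0.029 and the Tfrc 3′ minus 5′ difference −0.22 (0.65 with a pseudocount of 1). Other than through the scaling itself, the cause was not tested.

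Leaving out single arrays gave 12 to 15 called member probe sets, 6 to 7 higher and 5 to 8 lower, 5 to 6 disagreeing genes (Tmsb10 included) and 10 to 12 with larger spread. The Actb control differences ranged from −0.063 to 0.059 for 3′ minus 5′ and from 1.63 to 2.01 for 3′ minus middle. Tmsb4x ranged from −0.024 to 0.061 and Vim 1456292_a_at from −0.22 to 0.024. Over all alternatives of the 19 log2 fold changes, 476 values kept direction and call, 19 passed and 15 lost the threshold, and 15 turned sign. Replicate numbers did not pair the samples (deviations of same-numbered arrays correlated at −0.0078 to 0.018), and with the replicate block 13 member probe sets were called, 7 higher and 6 lower, and 32 and 63 in the lists. Dim probe sets near the lowest listed value carry little information on fold size.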

Other observations

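The probe sets whose log2 values over the 8 amplified arrays were most like those of Actb 1436722_a_at were those of Fyn (r = 0.97), Rab29 (r = 0.96) and Fjx1 (r = 0.96), chosen as the highest correlations among all tested genes. These values rest on amplified replicates 3 and 5 in part: over the other 6 arrays r was 0.78 for Fyn, 0.78 for Rab29 and 0.29 for Fjx1. They are given as a description, over technical replicates of a single RNA.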
